A study of Homo sapiens with 6 samples.

Results

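The AP-1 and EGR immediate-early genes described here are 10 genes taken by name from the 12760 rows of a table of gene expression in MM.1S, a line of human plasma cell cancer cells from a case of multiple myeloma. FOS, FOSB, FOSL2, JUN, JUNB and JUND encode the proteins that make up the transcription factor AP-1, and EGR1 and IER2 encode other nuclear proteins of the same early response. DUSP4 and DUSP6 encode phosphatases that switch MAP kinases off. All 10 were in the table, and all 10 reached the mean of at least 1 FPKM (fragments per kilobase, normalized for library size) that was set for testing and that 11276 rows met.

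Lenalidomide-resistant cells (LenR, 3 libraries) were compared with cells given only the solvent DMSO over the same period (WT, 3 libraries). LenR cells had been grown under lenalidomide, a drug that redirects the cereblon ubiquitin ligase to new target proteins, from 10 nM upwards with a 10-fold higher dose every month for 3 months. Both groups carry the genotype entry WT, and no engineered change is given for either. The labels speak of biological replicates and of a resistant line, but not of whether several lines were selected, whether the line was cloned, or whether drug was present when RNA was taken. The p-values therefore measure the spread between these cultures, and a drug effect at harvest and an effect of selection cannot be told apart.

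Immediate-early genes are transcribed within minutes of a growth factor, cytokine or stress signal, without new protein having to be made first, and most of their mRNAs are short lived. ERK, JNK and p38 MAP kinases switch them on through factors already bound near their start sites, among them serum response factor (SRF) with its ternary complex partners at CArG boxes, and CREB and ATF proteins at cyclic AMP response elements (CRE). JUN proteins pair with each other or with FOS proteins, FOS proteins need a JUN partner, and the pairs bind AP-1 sites. In multiple myeloma, JUNB has been described as promoting growth, and EGR1 as acting with JUN in cell death.

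The stretches of 250 bases before the RefSeq starts of EGR1 (GRCh38.p14, chr5:138465229-138465478), FOS (chr14:75278578-75278827) and FOSB (chr19:45467746-45467995), all on the plus strand, are shown because these 3 members had the strongest differences between LenR and WT. Capitals mark CArG boxes, an EGR site and the CRE core TGACG, which reads CGTCA where it lies on the other strand.
EGR1: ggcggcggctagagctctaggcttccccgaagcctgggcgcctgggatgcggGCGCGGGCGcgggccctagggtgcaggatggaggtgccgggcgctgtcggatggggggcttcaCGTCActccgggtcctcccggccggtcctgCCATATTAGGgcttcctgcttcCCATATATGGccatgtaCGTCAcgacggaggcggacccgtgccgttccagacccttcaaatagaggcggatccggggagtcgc
FOS: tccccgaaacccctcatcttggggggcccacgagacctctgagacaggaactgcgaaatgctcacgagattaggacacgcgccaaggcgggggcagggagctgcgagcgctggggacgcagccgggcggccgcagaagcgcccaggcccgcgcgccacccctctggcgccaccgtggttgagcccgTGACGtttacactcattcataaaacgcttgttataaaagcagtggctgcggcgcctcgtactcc
FOSB: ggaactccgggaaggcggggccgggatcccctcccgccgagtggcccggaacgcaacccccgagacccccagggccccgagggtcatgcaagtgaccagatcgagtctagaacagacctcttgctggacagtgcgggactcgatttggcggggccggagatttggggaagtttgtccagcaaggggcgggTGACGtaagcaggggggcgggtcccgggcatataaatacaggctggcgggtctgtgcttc
EGR1 held 2 CArG boxes, 105 to 96 and 83 to 74 bases before its start. Within these 250 bases it was the only member with one, among the 9 members for which RefSeq gave a promoter (DUSP4 had no entry). Of 8461 promoters of tested genes, 0.946% held a CArG box, and of all 27305 promoters 1.14%. The EGR site GCGNGGGCG, the sequence to which EGR1 protein itself binds, was found in EGR1 only, 198 to 190 bases before the start, against 14.0% of the promoters of tested genes. The full CRE TGACGTCA, which contains the core TGACG on both strands, was in JUND only (3.01% of promoters of tested genes). The ETS core CCGGAAG was in IER2 only (17.2%), and the AP-1 site TGANTCA was in none of the 9 (3.66%). The core TGACG, a motif chosen after the promoters had been read, was in 8 of the 9, all but DUSP6, against 30.7% of promoters of tested genes. It lay close to the start in EGR1 (66 to 62 bases), FOS (64 to 60), FOSB (60 to 56) and FOSL2 (66 to 62). Both strands were searched for each motif, and a match is a run of letters, not a shown binding site. Only the 250 bases before each start were searched, so a site further upstream would have been missed.

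The libraries held 14502802 to 17388323 reads by the deposited values. Most of the variance between libraries (58.1%, in the first principal component) lay between LenR and WT. A further component (26.8%) set LenR 2 and WT 3 apart from the other libraries, with LenR 3 at its other end. Within their own group, 6 of the 10 members (EGR1, FOS, FOSB, FOSL2, JUND and DUSP4) were highest in LenR 2 and in WT 3, and 8 were lowest of the LenR libraries in LenR 3. All 8 plasma cell markers were present (SDC1, TNFRSF17, CD38, XBP1, IRF4, PRDM1, MZB1 and SLAMF7). Their summed level was 2419 to 2621 FPKM in LenR and 2048 to 2111 FPKM in WT. By the test used below, 5 of the 8 (SDC1, CD38, XBP1, IRF4 and PRDM1) were higher in LenR, against 8.57% of all tested genes. MAF, which MM.1S expresses strongly, stood at 119 to 140 FPKM over all libraries. Of 6 T and NK cell markers, 2 were in the table, with a summed level of 3.07 to 3.87 FPKM in LenR and 3.71 to 4.11 FPKM in WT. The other marker lists each had 1 gene in the table, CD68 for myeloid cells (17.3 to 19.3 FPKM in LenR, 12.9 to 16.6 FPKM in WT), COL1A1 for epithelial and stromal cells (under 0.43 FPKM throughout) and HBB for erythroid cells (5.55 to 8.31 FPKM in LenR, 5.83 to 7.11 FPKM in WT). The part of these differences in the results for the members was not tested.

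EGR1 and DUSP4 were higher in LenR than in WT, and FOS and FOSB were lower. The other 6 members, FOSL2, JUN, JUNB, JUND, IER2 and DUSP6, did not pass the test. A gene was called where its adjusted p was at or below 0.05 by limma on log2(FPKM + 1), with Benjamini-Hochberg adjustment over all 11276 genes. Thus 4 of the 10 members were called, against 15.1% of all tested genes, 2 of them higher (8.57% of all genes) and 2 lower (6.57%). LenR and WT values did not overlap in 5 members, the 4 called ones and JUNB, against 34.5% of all genes. The median log2 fold change was 0.10 over the members and -0.002 over all genes. In bulk RNA, a smaller share of expressing cells and less RNA per cell cannot be told apart.

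**Figure D1:**
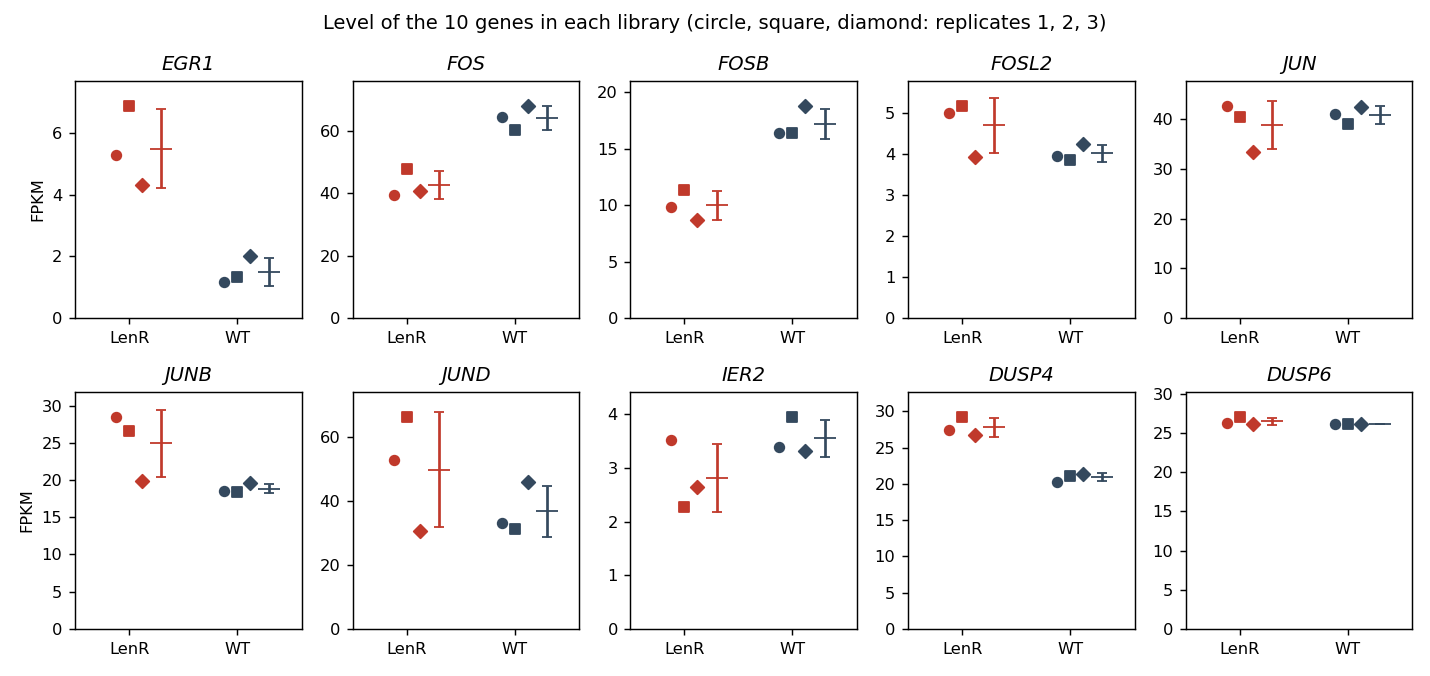
Level in FPKM (vertical axes, each starting at 0) of the 10 genes in the 3 LenR libraries (red, left) and the 3 WT libraries (dark blue, right), with the mean and SD beside the points. LenR points lie clear above WT points for EGR1 and DUSP4 and clear below them for FOS and FOSB. For JUNB they also lie above, but LenR 3 (19.8 FPKM) is only just above WT 3 (19.6 FPKM). Those of the other 5 genes overlap.

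EGR1, a zinc-finger transcription factor that binds GC-rich sites, had the strongest difference of the 10. The gene lies on chromosome 5 (GRCh38, chr5:138465490-138469315, plus strand). Its level was 5.30, 6.86 and 4.32 FPKM in LenR 1 to 3, against 1.18, 1.33 and 2.03 FPKM in WT 1 to 3. Every LenR library was above every WT library, and within each group the highest value came from the library that stood apart, LenR 2 or WT 3. These values rested on 242, 341 and 237 reads in LenR and 65, 69 and 93 reads in WT. EGR1 averaged 5.49 ± 1.28 FPKM in LenR and 1.51 ± 0.453 FPKM in WT (SD, n = 3 each), a ratio of means of 3.63. The log2 fold change was 1.37 (SE 0.17, 95% interval 0.98 to 1.75, adjusted p = 0.00133 by limma). Of the 11276 tested genes, 31 (0.275%) had a log2 fold change at least that high, EGR1 among them. Since 1 FPKM was added before taking logs, the fold change of so low a gene is understated, and it was 1.81 with 0.1 FPKM added and 1.89 by voom on the reads. The difference was of like size between the libraries that stood apart (LenR 2 minus WT 3, 1.38) and without them (1.36, adjusted p = 0.00103 by limma). EGR1 stayed past the threshold when any single library was left out, with a highest adjusted p of 0.0130 by limma, without LenR 1.

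By level, EGR1 stood above FOSL2 and IER2 in LenR and below both in WT. The mean level of EGR1 was at the 36.5 percentile of all 12760 rows in LenR and at the 17.0 percentile in WT. In LenR, the order from high to low was JUND, FOS, JUN, DUSP4, DUSP6, JUNB, FOSB, EGR1, FOSL2 and IER2, on the scale of FPKM, which is per gene length. There, the library values of JUND overlapped with those of FOS, FOS with JUN, DUSP4 with DUSP6, DUSP6 with JUNB, and EGR1 with FOSL2. In WT, the order was FOS, JUN, JUND, DUSP6, DUSP4, JUNB, FOSB, FOSL2, IER2 and EGR1. Overlapping neighbours in that order were JUN and JUND, JUNB and FOSB, and FOSL2 and IER2. EGR1 amounted to 13.5%, 14.3% and 10.6% of the FOS level in LenR 1 to 3, against 1.84%, 2.21% and 3.00% in WT 1 to 3.

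**Figure D2:**
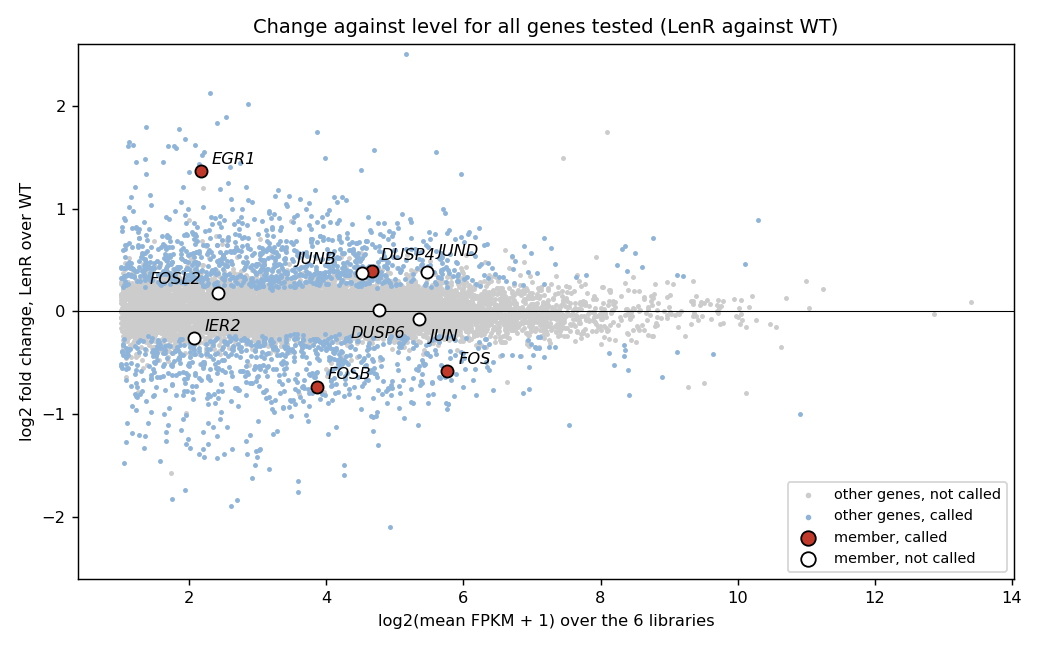
Log2 fold change, LenR over WT (vertical axis), against log2 of the mean FPKM plus 1 over the 6 libraries (horizontal axis) for the 11276 tested genes, with the 10 members as large circles (red where adjusted p was at or below 0.05). EGR1 lies at 1.37 among low genes, FOS and FOSB at -0.58 and -0.73, and JUN and DUSP6 close to 0.

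FOS and FOSB, the AP-1 subunits with strong transactivating ends, were both lower in LenR. FOS lies at chr14:75278774-75282230 on the plus strand. The level of FOS was 39.4, 47.8 and 40.8 FPKM in LenR 1 to 3, against 64.3, 60.1 and 67.7 FPKM in WT 1 to 3. The highest LenR library stayed below the lowest WT library. FOS averaged 42.7 ± 4.55 FPKM in LenR and 64.0 ± 3.79 FPKM in WT (SD, n = 3 each), a ratio of 0.666, and its log2 fold change was -0.58 (SE 0.092, 95% interval -0.79 to -0.36, adjusted p = 0.00459 by limma). Between LenR 2 and WT 3 the difference was -0.49, and without both of them -0.62. FOS was called in each of 22 alternative fits.

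FOSB (chr19:45467995-45475179, plus strand) stood at 9.86, 11.3 and 8.72 FPKM in LenR 1 to 3, against 16.4, 16.4 and 18.7 FPKM in WT 1 to 3. Its LenR and WT values did not overlap either. The means were 9.97 ± 1.31 FPKM in LenR and 17.2 ± 1.35 FPKM in WT (SD, n = 3 each), a ratio of 0.581. FOSB had a log2 fold change of -0.73 (SE 0.10, 95% interval -0.96 to -0.50, adjusted p = 0.00227 by limma), with -0.68 between LenR 2 and WT 3 and -0.76 without them, and it too was called in each of 22 alternative fits. FOSB shares part of its span with ERCC1, a DNA repair gene on the other strand. The strand setting of the counting is not given in the sources used here, so reads in the shared stretch may belong to either gene. ERCC1 averaged 8.92 FPKM in LenR and 8.09 FPKM in WT (log2 fold change 0.12, adjusted p = 0.529 by limma).

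FOSL2, which encodes FRA2, a FOS relative without a strong transactivating end, did not follow FOS and FOSB. FOSL2 was at 5.01, 5.16 and 3.93 FPKM in LenR 1 to 3 and at 3.94, 3.85 and 4.25 FPKM in WT 1 to 3. LenR 1 and LenR 2 were above all WT libraries, and LenR 3 lay within the WT range. The log2 fold change was 0.18 (95% interval -0.05 to 0.40, adjusted p = 0.275 by limma), and no alternative fit called it. The fourth gene of the family, FOSL1, had no row under that name.

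None of the 3 JUN genes passed the test. JUN, the best known partner of FOS, was at 42.5, 40.4 and 33.4 FPKM in LenR 1 to 3 and at 40.9, 39.0 and 42.5 FPKM in WT 1 to 3. LenR 1 and LenR 2 lay within or at the edge of the WT values, and LenR 3 below them. The log2 fold change was -0.08 (95% interval -0.30 to 0.15, adjusted p = 0.671 by limma). Without LenR 3 its direction turned, at 0.02 (adjusted p = 0.872).

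JUNB, a weaker activator than JUN that can restrain it, was at 28.4, 26.5 and 19.8 FPKM in LenR 1 to 3, against 18.6, 18.4 and 19.6 FPKM in WT 1 to 3. All LenR libraries were above all WT libraries, but LenR 3 exceeded WT 3 by little. JUNB averaged 24.9 ± 4.53 FPKM in LenR and 18.8 ± 0.655 FPKM in WT (SD, n = 3 each), and its log2 fold change of 0.37 (SE 0.13, 95% interval 0.08 to 0.66) missed the threshold (adjusted p = 0.0938 by limma). It passed in 3 of 22 alternative fits, which were those without LenR 3 (0.52, adjusted p = 0.00471), with a term for LenR 2 and WT 3 (adjusted p = 0.0471) and with each library's trend over GC content removed (0.28, adjusted p = 0.0197). JUNB overlaps HOOK2, a gene of the opposite strand, which averaged 11.9 FPKM in LenR and 8.74 FPKM in WT (log2 fold change 0.40, adjusted p = 0.0155 by limma). How far the reads of this pair mix was not tested.

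JUND, the JUN gene with the steadiest expression in resting cells, had the widest spread of the members in LenR. It was at 52.8, 66.3 and 30.6 FPKM in LenR 1 to 3 and at 33.2, 31.3 and 46.0 FPKM in WT 1 to 3. LenR 3 fell below every WT library, while LenR 1 and LenR 2 were above every WT library. Its coefficient of variation was 36.2% in LenR and 21.7% in WT, where EGR1 varied more (30.0%). The log2 fold change of JUND was 0.38 with a 95% interval from -0.24 to 1.00 (adjusted p = 0.410 by limma), and 0.69 without LenR 3 (adjusted p = 0.0444). JUND also had the highest GC content of the 10 genes, 69.7%.

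Summed over FOS, FOSB and FOSL2, the FOS family was at 54.2, 64.3 and 53.4 FPKM in LenR 1 to 3, against 84.6, 80.4 and 90.7 FPKM in WT 1 to 3, with no overlap. The JUN family (JUN, JUNB and JUND) summed to 124, 133 and 83.8 FPKM in LenR 1 to 3, against 92.7, 88.7 and 108 FPKM in WT 1 to 3, and there LenR 3 was lowest of all libraries. The FOS family was thus 0.438, 0.483 and 0.638 of the JUN family in LenR 1 to 3, against 0.912, 0.906 and 0.839 in WT 1 to 3. Every LenR library had a lower ratio than every WT library. The level of FOS over that of FOSB was 3.99, 4.22 and 4.67 in LenR 1 to 3, against 3.93, 3.66 and 3.62 in WT 1 to 3. Every LenR ratio was above every WT ratio, though LenR 1 and WT 1 were close. These sums and ratios are descriptions of chosen genes, without a test.

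**Figure D3:**
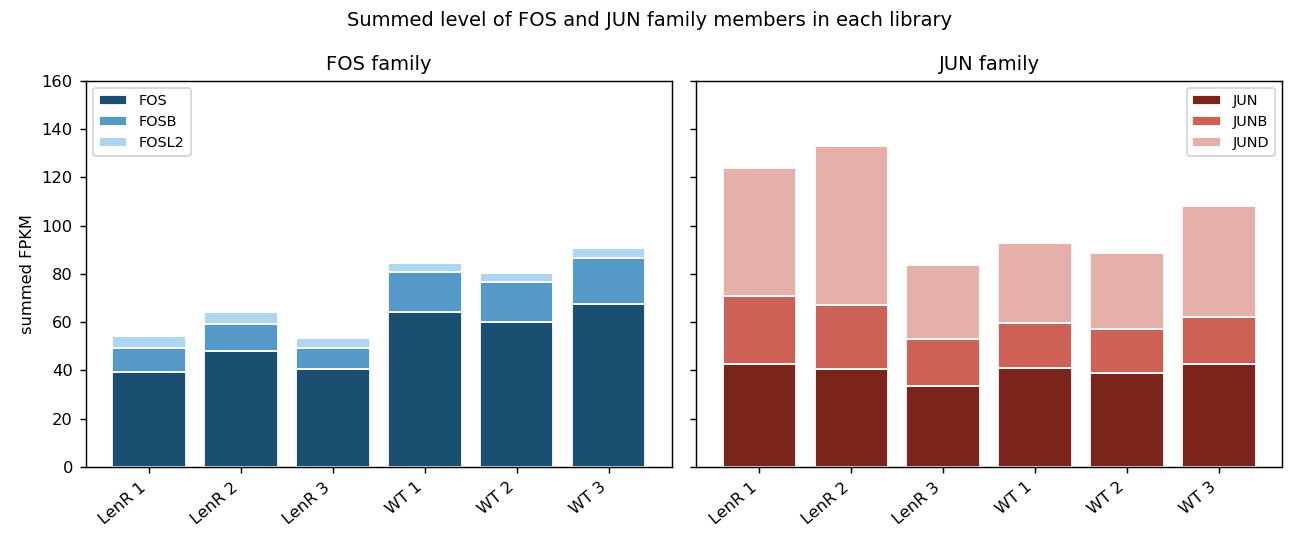
Summed FPKM (vertical axis, from 0) of FOS, FOSB and FOSL2 (left) and of JUN, JUNB and JUND (right) in each library, LenR before WT, with the genes stacked. FOS family bars reach 53.4 to 64.3 in LenR and 80.4 to 90.7 in WT, while JUN family bars of both groups overlap, with JUND making up most of their spread.

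IER2, a small nuclear protein of the early response, had the lowest level of the 10 in LenR. IER2 was at 3.52, 2.28 and 2.66 FPKM in LenR 1 to 3 and at 3.399, 3.95 and 3.31 FPKM in WT 1 to 3, from 74 to 105 reads in LenR and 99 to 134 reads in WT. LenR 1 lay within the WT range, and LenR 2 and LenR 3 below it. The log2 fold change was -0.26 (95% interval -0.55 to 0.02, adjusted p = 0.205 by limma), and no alternative fit called it.

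Of the MAP kinase phosphatases among the members, DUSP4 was higher in LenR and DUSP6 showed hardly any difference. DUSP4, which acts in the nucleus on ERK, JNK and p38 and is itself induced by ERK, was at 27.4, 29.2 and 26.7 FPKM in LenR 1 to 3, against 20.3, 21.1 and 21.4 FPKM in WT 1 to 3. The groups did not overlap. DUSP4 averaged 27.8 ± 1.28 FPKM in LenR and 20.9 ± 0.559 FPKM in WT (SD, n = 3 each), a ratio of 1.33, with a log2 fold change of 0.39 (SE 0.065, 95% interval 0.24 to 0.54, adjusted p = 0.00540 by limma). It was 0.43 between LenR 2 and WT 3 and 0.37 without them. DUSP4 was called in 21 of 22 alternative fits (highest adjusted p 0.0630 by limma).

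DUSP6, a cytoplasmic phosphatase selective for ERK and a common readout of ERK activity, was at 26.3, 27.0 and 26.2 FPKM in LenR 1 to 3 and at 26.1, 26.2 and 26.1 FPKM in WT 1 to 3. It varied least of the members, with a coefficient of variation of 1.78% in LenR and 0.182% in WT. Its log2 fold change was 0.02 with a 95% interval from -0.12 to 0.15 (adjusted p = 0.887 by limma). DUSP6 was thus at 0.958, 0.926 and 0.980 of the DUSP4 level in LenR 1 to 3, against 1.29, 1.24 and 1.22 in WT 1 to 3.

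Outside the 10 members, other immediate-early genes also went both ways. Of 31 in the table, 29 were tested, and 4 were higher and 7 lower in LenR, with a median log2 fold change of 0.03. The share called was 37.9%, against 15.1% of all tested genes. MYC, the growth-promoting transcription factor, was at 369, 442 and 336 FPKM in LenR 1 to 3, against 238, 233 and 281 FPKM in WT 1 to 3 (log2 fold change 0.60, adjusted p = 0.0157 by limma). NAB2, a corepressor that binds EGR1 and is induced by it, was at 3.60, 3.68 and 3.14 FPKM in LenR 1 to 3, against 1.98, 2.43 and 2.63 FPKM in WT 1 to 3 (log2 fold change 0.42, adjusted p = 0.0201). Neither gene overlapped between groups, but both calls were lost in some fits with 1 library left out. MYC missed the threshold without LenR 1, WT 1 or WT 2 (highest adjusted p 0.0722 by limma), and NAB2 without LenR 1, LenR 2, WT 1 or WT 2 (highest 0.0873). Among the lower genes were the kinase genes SIK1, at 2.70 FPKM in LenR and 6.28 FPKM in WT (log2 fold change -0.98, adjusted p = 0.000133), and SGK1, at 11.1 FPKM in LenR and 20.9 FPKM in WT (log2 fold change -0.86, adjusted p = 0.000203). SIK1 is a target of CREB, and SGK1 answers to serum and glucocorticoids. Both were called without any single library, while the number of called genes in the list ranged from 4 to 10 in these fits. Without WT 1, 0 genes of the list were called higher and 4 lower, and likewise without WT 2. Calls over all genes also fell in these smaller fits, from 1707 to 1007 without WT 1 and 1060 without WT 2.

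The remaining MAP kinase phosphatases were likewise mixed, with 3 of 8 higher and 2 lower, and a median log2 fold change of 0.13. The share called was 62.5%, against 15.1% of all tested genes. DUSP2, a nuclear phosphatase of lymphoid cells, was at 11.2, 10.9 and 10.5 FPKM in LenR 1 to 3, against 5.38, 5.19 and 5.48 FPKM in WT 1 to 3 (log2 fold change 0.90, adjusted p = 0.000121 by limma). DUSP1, an immediate-early phosphatase of JNK and p38, was at 46.9, 51.2 and 43.9 FPKM in LenR 1 to 3, against 61.9, 60.4 and 64.4 FPKM in WT 1 to 3 (log2 fold change -0.39, adjusted p = 0.0129). Both separated the groups fully, but DUSP1 missed the threshold without LenR 1 or WT 1 (highest adjusted p 0.0598 by limma). DUSP16 (0.29, adjusted p = 0.0190) was higher and DUSP5, a nuclear ERK phosphatase (-0.36, adjusted p = 0.0442), was lower. DUSP16 was lost without LenR 2, WT 1 or WT 2 (highest adjusted p 0.102 by limma), and DUSP5 without every library except LenR 2 (highest 0.151). With 1 library left out, 1 to 4 of the 8 genes were called, and DUSP2 in each such fit. No phosphatase gene of the list was called lower without LenR 1 or without WT 1.

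**Figure D4:**
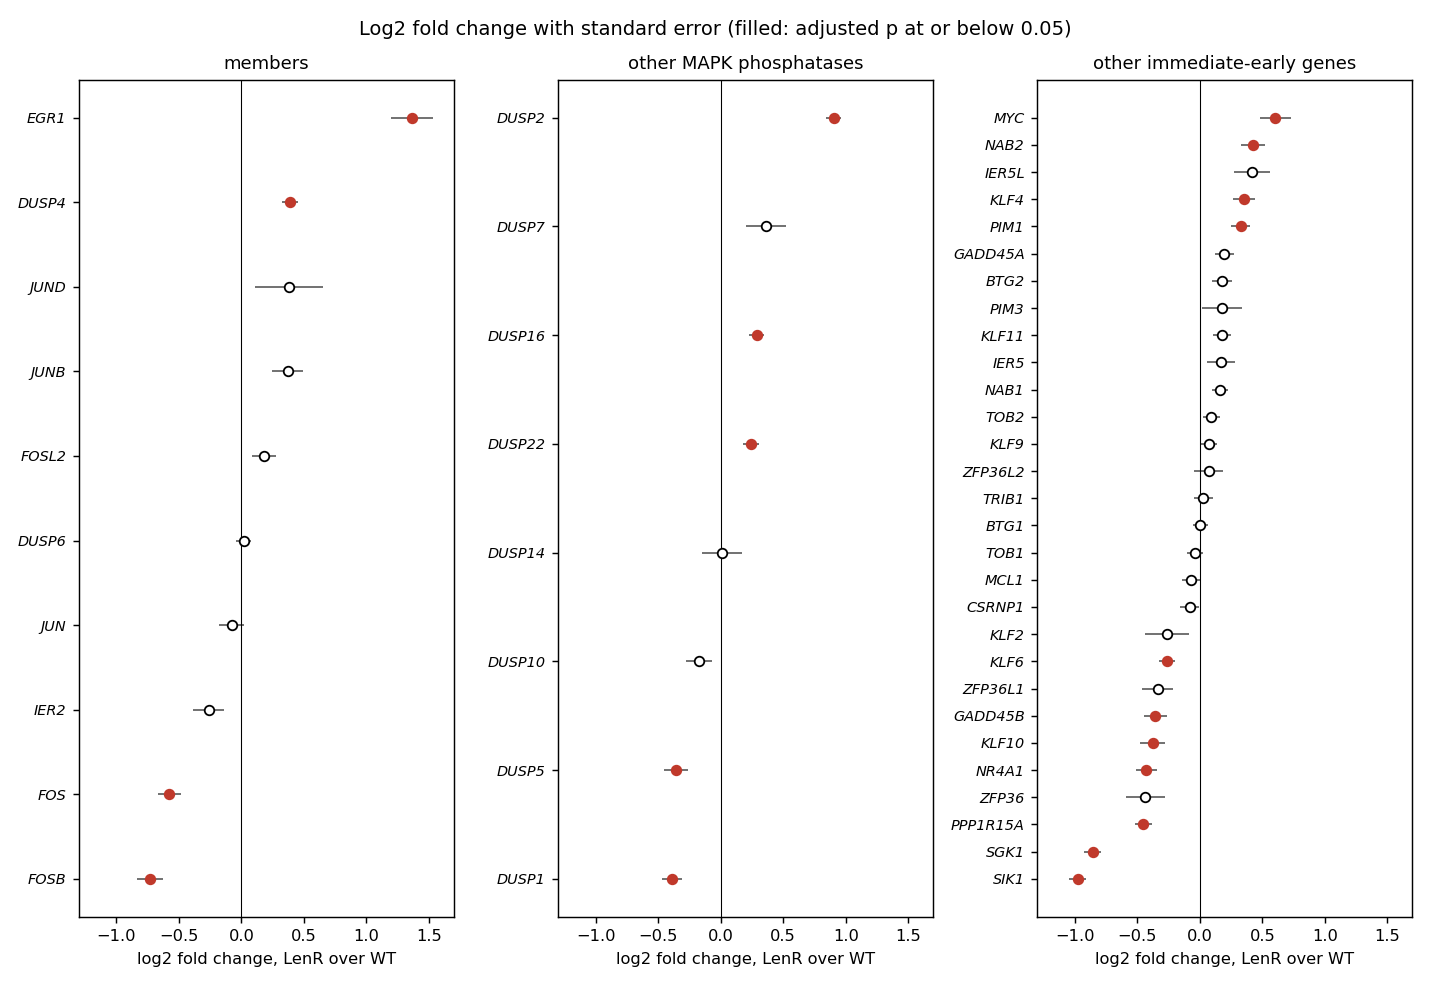
Log2 fold change, LenR over WT, with its standard error (horizontal axes) for the 10 members, the 8 other MAP kinase phosphatases and the 29 other immediate-early genes, filled red where adjusted p was at or below 0.05. Each panel holds called genes on both sides of 0, from EGR1 at 1.37 to SIK1 at -0.98.

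Among partners that form mixed pairs with AP-1 proteins (ATF, MAF and CREB relatives), 1 of 14 tested genes was called (7.14%, against 15.1% of all tested genes). This was ATF3, a stress-induced factor, at 21.0, 18.4 and 20.1 FPKM in LenR 1 to 3, against 15.3, 15.4 and 14.4 FPKM in WT 1 to 3 (log2 fold change 0.38, adjusted p = 0.0101 by limma). All LenR values were above all WT values, and the call held without any single library and in 21 of 22 alternative fits (highest adjusted p 0.0750 by limma). SRF and its cofactors gave no call among 6 genes, with 1 gene at an unadjusted p under 0.05 and none called by voom. A term for LenR 2 and WT 3, or removal of each library's GC trend, gave 1 call each, lower in LenR. The list's median log2 fold change was -0.05, and SRF itself differed by 0.03 (adjusted p = 0.923 by limma).

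In the RAS, RAF, MEK and ERK cascade, 2 of 25 genes were higher and 1 was lower, with a median of -0.02. The share called in this list was below the 15.1% of all tested genes. PTPN11, which encodes SHP2, a phosphatase that links receptors to RAS, was at 27.7, 28.1 and 29.4 FPKM in LenR 1 to 3, against 18.2, 17.2 and 16.5 FPKM in WT 1 to 3 (log2 fold change 0.69, adjusted p = 0.000466 by limma). Its LenR and WT ranges lay far apart relative to the spread within either group. RPS6KA2, an ERK-activated kinase (0.37, adjusted p = 0.0239), was lost without LenR 1, LenR 2, WT 1 or WT 2 (highest adjusted p 0.0979 by limma). MKNK1, a kinase that ERK and p38 activate (-0.30, adjusted p = 0.0355), was called in 1 of the 6 fits with a library left out, that without LenR 2 (highest adjusted p 0.136). Of 18 genes of the JNK and p38 cascades, 1 was called (5.56%, against 15.1% of all tested genes). It was MAPK13, a p38 kinase, at 37.5 FPKM in LenR and 25.8 FPKM in WT (log2 fold change 0.53, adjusted p = 0.00131 by limma).

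Of 6 tested genes that ERK signalling induces or that restrain it, 2 were higher (33.3%, against 8.57% of all tested genes). CCND1, the gene of cyclin D1, was at 6.93, 7.80 and 7.17 FPKM in LenR 1 to 3, against 2.54, 2.55 and 2.41 FPKM in WT 1 to 3 (log2 fold change 1.25, adjusted p = 6.71e-05 by limma). PHLDA1 was at 14.9, 13.6 and 14.6 FPKM in LenR 1 to 3, against 9.90, 10.5 and 9.98 FPKM in WT 1 to 3 (log2 fold change 0.47, adjusted p = 0.00232). Both held without any single library. Of 9 regulators of FOS and JUN protein turnover, 2 were called (22.2%, against 15.1% of all tested genes). The median log2 fold change of this list was -0.05, with 7 genes below 0 and 2 above. FBXW7, a ubiquitin ligase subunit for JUN and MYC, was higher (0.23, adjusted p = 0.0493 by limma). It was not called in any of the 6 fits with a library left out (highest adjusted p 0.146 by limma). Among 8 heat shock genes, which answer to stress by another route, 2 were called (25.0%, against 15.1% of all tested genes). HSPB1 was higher (0.76, adjusted p = 0.00573 by limma). HSP90AA1 was lower (-0.35, adjusted p = 0.0179), but not without LenR 1, WT 1 or WT 2 (highest adjusted p 0.105).

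Over these 9 lists, 27 of 123 tested genes were called (22.0%, against 15.1% of all genes), 15 higher and 12 lower. With 1 library left out, 11 to 23 were called, with the lowest counts without WT 1 (11), WT 2 (12) and LenR 1 (14). Of the 19 genes that the naming rule took from the lists, 9 were called in all 6 of these fits.

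Neighbouring genes within 5 Mb on the chromosome had median log2 fold changes between -0.09 and 0.03 for the members. EGR1 had 72 tested neighbours within 5 Mb on either side, with a median log2 fold change of 0.006, 37 above 0 and 35 below. Of these, 6 were called higher and 4 lower, against 8.57% and 6.57% of all tested genes. The neighbours ran from PCDH1 at 0.58 down to TMEM173 at -1.33. Within 2 Mb, EGR1 had 30 neighbours with a median of -0.05, 13 above 0 and 17 below, with 2 called higher and 4 lower. Around FOS, the 53 neighbours within 5 Mb had a median of -0.09, 17 above 0 and 36 below. FOSB had 168 with 0.03 (93 above, 75 below), and DUSP4 had 38 with -0.03 (17 above, 21 below). JUNB and IER2 lie close together on chromosome 19, and the medians around them were -0.006 and -0.003. The medians around the other 4 members ran from -0.09 (JUN, 7 above 0 and 19 below) to 0.02 (DUSP6, 9 above and 6 below).

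**Figure D5:**
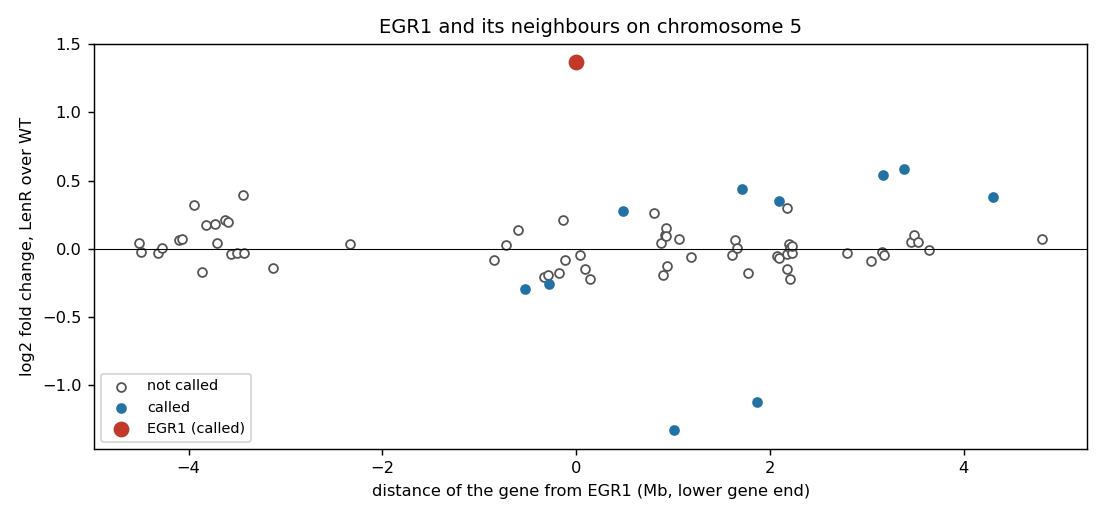
Log2 fold change, LenR over WT (vertical axis), of EGR1 (red) and of 72 tested genes within 5 Mb (horizontal axis, distance in Mb), filled where adjusted p was at or below 0.05. EGR1 at 1.37 lies above all its neighbours, whose values gather around 0 between -1.33 and 0.58.

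Likeness of pattern was measured as the root mean square difference of log2(FPKM + 1), centred on each gene's own mean, over the 6 libraries, among the 8310 genes that averaged 5 FPKM or more. ICAM1, an adhesion molecule, was most like EGR1 (0.0887), at 8.61, 9.88 and 7.88 FPKM in LenR 1 to 3, against 2.19, 2.29 and 3.37 FPKM in WT 1 to 3. As a choice by pattern favours, it was, like EGR1, highest in LenR 2 among LenR libraries and in WT 3 among WT libraries. LRP3, a relative of lipoprotein receptors (0.177), and FBXO41, an F-box gene (0.187), came next. Nearest to FOSB were WIPI2, an autophagy gene (0.0274), and HMGXB3 and TCOF1 (0.0282 each). All 6 genes lie on another chromosome than the member they resemble, and each likeness rests on the same 6 libraries.

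In gene structure, the 10 members were short and had few exons. Their longest coding transcripts in GENCODE 29 had a median of 2.5 exons, against 9 for 10364 tested genes, and all 10 had at most 4 exons, against 18.2% of those genes. JUN, JUNB, JUND and IER2 had 1 exon each. The median span was 4160 bases for the members and 33128 bases for all genes, and the median GC content was 56.0% for the members and 47.8% for all genes. AU-rich elements, which shorten the life of many early mRNAs, were counted as ATTTA in the 3′ UTR. At least 1 was in 9 members, all but IER2, against 67.6% of all genes, and at least 3 were in FOS, FOSB, FOSL2, JUN and DUSP4, against 40.3%. Per kilobase of 3′ UTR, the median was 1.49 in members and 1.54 in all genes. FOS had the densest run, with 6.18 per kilobase, and EGR1 had 0.808. The longer element TTATTTATT was in 3 members, FOS, FOSL2 and DUSP4, against 7.85% of all genes.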

How the data were processed

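RNA-seq of total RNA covered 6 MM.1S cultures. The authors deposited 1 table of FPKM values for 12760 genes, with a column per library. The submitters' processing notes name the build hg38 and, without roles, edgeR 3.40.2, featureCounts 2.0.3, FastQC 0.11.9 and HISAT2 2.2.1. Annotation, strand setting and the rule for listing a gene were not stated there or in the labels. For each gene the values were whole multiples of a step, which gave whole reads for all 12760 genes (within 0.03 of a read).

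Differences were tested with limma 3.58.1 (R 4.3.3) on log2(FPKM + 1) for 11276 genes averaging 1 FPKM or more (1484 fell below that). Group was the only term, empirical Bayes used a trend, and two-sided p-values were adjusted over all tested genes (Benjamini-Hochberg, threshold 0.05). SEs and 95% intervals are limma's. Positions and transcripts came from GENCODE 29, and promoters from RefSeq (GRCh38.p14). Plots used matplotlib 3.10.9 under Python 3.11.15.

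The members and lists were chosen with earlier results of these data known. Named genes are the 10 members, DUSP1, ATF3, up to 2 called genes per list and direction with the strongest log2 fold change, and the 3 genes most like each of the 2 most changed members. HOOK2, ERCC1, SRF and the neighbours of EGR1 were named after their values were seen. A gene that the rule took is not reported here. The test was checked on simulated reads drawn independently for each library. These held no component like the one that sets LenR 2 and WT 3 apart, so the check does not cover it. There were 22 alternative fits: pseudocounts, filters, scalings, empirical Bayes settings, each library left out, WT 1 and WT 2 averaged, LenR 2 and WT 3 left out or given a term, voom on the recovered reads, GC and length trends removed, and a replicate block.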

Additional observations from a re-analysis of the deposited data

How the results depend on the processing

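EGR1 (where tested), FOS and FOSB were called in every alternative fit. DUSP4 was called in 21 of 22, the exception being the replicate block (adjusted p = 0.0630 by limma), which also lost ATF3 (0.0750). With that block, 907 genes were called in place of 1707, and 9 list genes in place of 27. The labels do not say whether same-numbered libraries form pairs. Deviations of same-numbered libraries from their group means correlated at 0.02, -0.56 and -0.68 over genes for numbers 1 to 3. These values cannot decide it, since the component that sets LenR 2 and WT 3 apart weighs on them. EGR1 was not tested at a mean of at least 5 FPKM, where 1075 of fewer genes were called. Averaging WT 1 and WT 2, which leaves fewer samples, gave 1052 genes and 11 list genes, and a term for LenR 2 and WT 3 gave 3163 and 41. Scaling to the same FPKM total gave 17 list genes, and the cause was not tested. With each library left out in turn, 1007 to 1562 genes and 11 to 23 list genes were called. With both LenR 2 and WT 3 left out these were 1822 and 35. JUN lay between -0.15 and 0.023 on the log2 scale when a library was left out, with the positive value without LenR 3. JUNB and JUND passed without LenR 3 (adjusted p = 0.00471 and 0.0444 by limma). With 3 libraries a group and 74 reads for IER2 in its lowest library, small changes of the low genes could not be resolved.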

Other observations

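The other 7 called immediate-early genes, given here after their values were seen, were KLF4 and PIM1 (higher in LenR) and NR4A1, PPP1R15A, GADD45B, KLF6 and KLF10 (lower). PPP1R15A, the stress-induced gene of GADD34, was at 30.0, 30.5 and 28.7 FPKM in LenR 1 to 3, against 40.3, 39.6 and 43.4 FPKM in WT 1 to 3 (log2 fold change -0.45, adjusted p = 0.00327 by limma). NR4A1, an orphan nuclear receptor gene, was at 1.46, 1.49 and 1.19 FPKM in LenR 1 to 3, against 2.24, 2.00 and 2.36 FPKM in WT 1 to 3 (log2 fold change -0.43, adjusted p = 0.0107). Both separated the groups fully and were called without any single library. The Krüppel-like factor genes went both ways, with KLF4 at 0.35 (adjusted p = 0.0352), KLF6 at -0.26 (adjusted p = 0.0327) and KLF10 at -0.38 (adjusted p = 0.0407). The kinase gene PIM1 was at 0.32 (adjusted p = 0.0224) and GADD45B at -0.36 (adjusted p = 0.0374). Each of these 5 missed the threshold in 4 or 5 of the 6 fits with a library left out, the fits without WT 1 and without WT 2 among them, with highest adjusted p-values from 0.108 (PIM1) to 0.166 (KLF6) by limma. DUSP22 (0.24, adjusted p = 0.0429) was the remaining called phosphatase and was lost in each of the 6 fits (highest adjusted p 0.198).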
